A study of Mus musculus with 16 samples.

Results

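The genes described here are 32 members of the cholesterol and fatty acid synthesis programme: 18 enzymes of sterol synthesis, 5 genes of the SREBP regulatory system, 2 genes of sterol transport and 7 enzymes of fatty acid synthesis and use. They were chosen by gene symbol and not by any measured value, from the 46348 genes of the deposited table. All 32 were found in the table, and all 32 were among the 15494 genes that passed the filter on low counts and were tested. All RNA was from MEC1 cells, a mouse line of epicardial origin. Epicardial cells are mesothelial cells on the outer surface of the heart. Poly(A)-enriched RNA was sequenced in 8 groups of 2 libraries. The siRNA was a control siRNA, one to PRMT1, one to p53, or those to PRMT1 and p53 together, and each of these 4 treatments was given without and with TGF-beta. Every group carries an siRNA, all cells are of 1 line, and the TGF-beta dose and time and the siRNA amounts are not given in the sources used here. The study's title places PRMT1, an arginine methyltransferase, upstream of p53 in epicardial invasion and cell fate, so the comparisons ask what TGF-beta and each siRNA did to the lipid synthesis genes.

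Sterol synthesis converts acetyl-CoA through mevalonate, isoprenoid diphosphates and squalene to lanosterol and then to cholesterol, and fatty acid synthesis draws on the same acetyl-CoA. The transcription factors SREBP1 and SREBP2, encoded by Srebf1 and Srebf2, are made as membrane-bound precursors. SCAP carries them to the Golgi for cleavage when sterols are scarce, INSIG proteins hold SCAP back when sterols are plentiful, and the released factors activate genes of both routes, Insig1 and Srebf2 among them. Abca1, which exports cholesterol, is activated by the LXR receptors when sterols accumulate.

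Library totals ran from 19617742 to 30759199 counts after rounding. Levels below are counts scaled to library size with TMM factors (CPM), in replicates 1 and 2 in that order. A log2 change is given ± its standard error, and a gene was called changed at an adjusted p under 0.05 in edgeR's quasi-likelihood test over all genes tested. The siRNA targets were lowered: Prmt1 was at 37.5% to 48.1% of the matching control group in the 4 groups with PRMT1 siRNA. Trp53 was at 40.2% and 44.9% with p53 siRNA alone, without and with TGF-beta in that order, and at 65.5% and 60.8% when PRMT1 siRNA was given too. All 10 epicardial and mesothelial markers were above 1 CPM in at least 1 library. Their summed level was 1219 to 1572 CPM in the libraries without TGF-beta and 364 to 424 CPM in those with it. Summed markers of other cell types stayed at or below 1.19 CPM for adipocytes (7 genes, 1 at 0 throughout), 0.0879 CPM for hepatocytes (6 genes, 2 at 0), 0.264 CPM for cardiomyocytes (5 genes), 4.16 CPM for haematopoietic cells (5 genes) and 8.02 CPM for endothelial cells (5 genes, 1 at 0). Replicate 2 of p53 siRNA with TGF-beta is called below the library that stood apart. Over all genes tested, the root mean square of the log2 differences between it and replicate 1 was 0.805. The pairs of the 7 remaining groups gave 0.341 to 0.426. Over the 32 genes, the log2 ratio of replicate 2 to replicate 1 had a Spearman correlation of -0.87 with exon length. The same value was 0.80 for both siRNAs with TGF-beta, 0.58 for control siRNA and between -0.33 and 0.43 in the rest. In the group of p53 siRNA with TGF-beta the lipid genes differed by a median of 0.351 on the log2 scale, against 0.0566 to 0.101 elsewhere. These values compare the 2 libraries of a group with each other, so they do not show which of the 2 is the unlike one. The name given to replicate 2 is therefore a label and not a result. Counts from a fit to the 15 other libraries are given beside the results that this fit moved most.

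Per kilobase of exon, the desaturase gene Scd2 was the most abundant of the 32 in untreated control cells, at 192 CPM per kb. The ATP citrate lyase gene Acly followed at 41.9 CPM per kb, Scd1 at 40.3 CPM per kb and the mevalonate-route gene Hmgcs1 at 32.9 CPM per kb. Srebf2 stood at 29.8 CPM per kb, above Srebf1 at 17.7 CPM per kb. The least abundant were Tm7sf2 at 1.98, the acetyl-CoA synthetase gene Acss2 at 1.26 and the phosphatidate phosphatase gene Lpin1 at 0.885 CPM per kb. In GENCODE vM21, 12 of the 32 genes share exon bases with another gene, 6 of them with a protein-coding one. Fdft1, for example, shares 774 bases with Ctsb on the opposite strand, Fdps 1124 bases with a predicted same-strand gene and Tm7sf2 532 bases with Vps51. Reads from shared bases of a same-strand pair cannot be assigned by strand, and whether the counting used strand for opposite-strand pairs is not given in the sources used here, so these levels are uncertain. Acat2 has a close copy beside it, Acat3, and its level is uncertain for that reason.

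The promoters of these genes are where the SREBP and NF-Y factors are known to act, and 5 of them are printed because they belong to genes on which the results turn; they were picked after the motif matches and the expression values were seen. Each is the 250 bases before a transcription start, 5′ to 3′ on the gene's strand, from RefSeq on GRCm38.p6, with exact motif matches on either strand in capitals.
Hmgcs1 promoter, first committed enzyme of the mevalonate route, chr13:119690101-119690350, plus strand: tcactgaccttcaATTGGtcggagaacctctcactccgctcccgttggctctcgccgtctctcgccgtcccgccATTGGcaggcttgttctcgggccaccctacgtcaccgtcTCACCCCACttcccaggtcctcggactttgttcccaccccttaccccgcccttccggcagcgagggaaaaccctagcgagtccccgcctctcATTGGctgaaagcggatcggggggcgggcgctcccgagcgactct
Idi1 promoter, isopentenyl diphosphate isomerase, chr13:8885356-8885605, plus strand: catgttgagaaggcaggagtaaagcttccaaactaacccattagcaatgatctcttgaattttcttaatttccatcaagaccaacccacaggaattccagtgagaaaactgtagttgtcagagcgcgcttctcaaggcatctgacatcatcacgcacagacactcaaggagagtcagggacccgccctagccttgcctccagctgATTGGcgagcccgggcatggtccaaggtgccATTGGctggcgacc
Cyp51 promoter, lanosterol demethylase, chr5:4104698-4104947, minus strand: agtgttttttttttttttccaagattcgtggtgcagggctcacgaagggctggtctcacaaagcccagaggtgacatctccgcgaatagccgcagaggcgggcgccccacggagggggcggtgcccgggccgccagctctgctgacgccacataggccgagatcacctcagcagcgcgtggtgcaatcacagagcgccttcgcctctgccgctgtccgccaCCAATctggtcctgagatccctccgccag
Insig1 promoter, sterol sensor partner of SCAP, chr5:28071162-28071411, plus strand: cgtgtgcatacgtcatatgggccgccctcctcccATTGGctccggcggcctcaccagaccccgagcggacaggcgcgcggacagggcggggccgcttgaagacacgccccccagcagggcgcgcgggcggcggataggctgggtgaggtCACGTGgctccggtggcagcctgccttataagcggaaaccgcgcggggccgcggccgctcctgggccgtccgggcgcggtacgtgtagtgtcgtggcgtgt
Abca1 promoter, cholesterol exporter, chr4:53159896-53160145, minus strand: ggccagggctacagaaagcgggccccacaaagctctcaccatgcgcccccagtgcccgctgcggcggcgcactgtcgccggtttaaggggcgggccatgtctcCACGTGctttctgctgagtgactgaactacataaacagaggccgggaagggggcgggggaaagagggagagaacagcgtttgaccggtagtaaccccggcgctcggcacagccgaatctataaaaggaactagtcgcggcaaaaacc
Of the 32 genes, 26 had a promoter window in the table of RefSeq promoters, which runs from 250 bases before to 50 after a start. The searched motifs were TCACNCCAC (a form of the SREBP element), CCAAT (the NF-Y box) and CACGTG (an E-box, which reads the same on both strands). A CCAAT box was present in the windows of 21 of these 26 genes (80.8%), against 41.1% of 27025 genes with a window. By role, it was found for 14 of 15 sterol enzymes, 4 of 5 SREBP regulators, 3 of 5 fatty acid enzymes and not for Abca1. Some genes have more than 1 window: counted by window, the shares were 64.7% of 34 and 37.4% of 32851. Only Hmgcs1 among the 26 held TCACNCCAC, which 1.44% of all genes with a window held. CACGTG was found for 6 of the 26 genes (23.1%), against 8.09% of all. The only matches that overlapped each other were a pair of CCAAT boxes on opposite strands in Fasn. A match is a description of these letters and not a site shown to be bound.

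**Figure D1:**
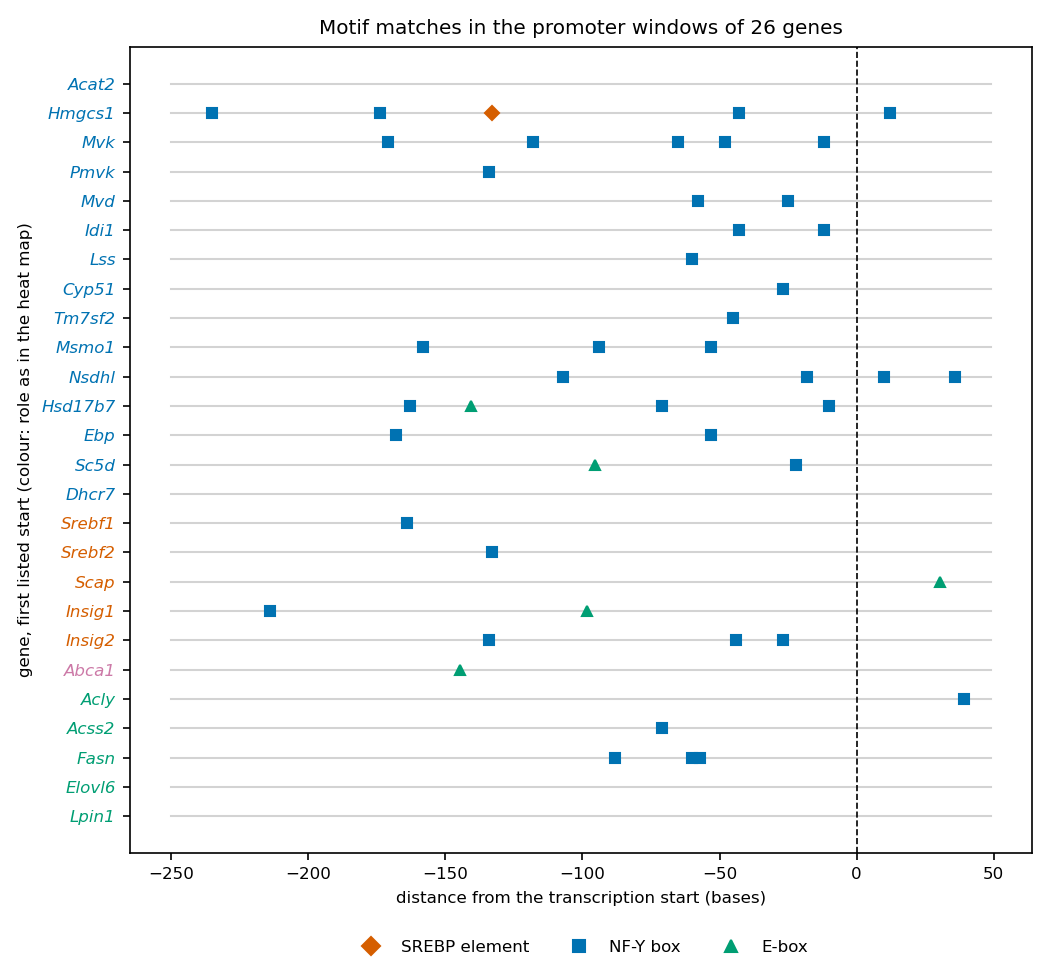
Positions of motif matches in the promoter window of the first listed start of 26 genes, in bases from the transcription start (dashed line), with gene names coloured by role. Squares are CCAAT boxes, the diamond is the TCACNCCAC match of Hmgcs1 and triangles are CACGTG. Most sterol enzyme genes carry at least 1 CCAAT box, while Abca1 carries a CACGTG only.

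TGF-beta raised most of the sterol enzyme genes in cells with control siRNA and lowered the cholesterol exporter. Of the 18 sterol enzymes, 12 rose and none fell, with a median log2 change of 0.57 beside -0.01 over all genes tested. Of all 32 genes 18 rose and 5 fell, 23 in all, where 38.4% of all genes tested were called (17.8% higher and 20.6% lower). The summed level of the sterol enzymes was 719 and 684 CPM without TGF-beta and 1215 and 1241 CPM with it, so the groups did not overlap. Summed markers of the epicardium fell over the same comparison, as given above; their part in the result was not tested, and in bulk libraries fewer cells of a type and less RNA per cell cannot be told apart.

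Cyp51, which removes a methyl group from lanosterol, was at 103 and 102 CPM without and 256 and 275 CPM with TGF-beta. Its log2 change was 1.37 ± 0.07 (adjusted p = 2.18e-08), and both treated libraries were above both untreated ones. Fdps, which makes farnesyl diphosphate, went from 39.9 and 36.7 to 91.0 and 87.9 CPM (1.22 ± 0.20). Msmo1, a sterol methyl oxidase, went from 41.1 and 40.1 to 94.0 and 93.7 CPM (1.21 ± 0.09), and Hsd17b7, a sterone reductase, rose by 1.15 ± 0.17. Idi1, the isomerase between isopentenyl and dimethylallyl diphosphate, was at 33.3 and 33.4 CPM and rose to 68.2 and 64.3 CPM (0.99 ± 0.07). Sqle, the squalene epoxidase, rose by 0.90 ± 0.08 and Nsdhl, a sterol dehydrogenase, by 0.87 ± 0.11. Smaller rises were called for Fdft1 (squalene synthase), Lss (lanosterol synthase), Hmgcs1, Acat2 (acetoacetyl-CoA thiolase) and Mvd (mevalonate diphosphate decarboxylase), between 0.48 and 0.66. The other 6 were not called: the kinase genes Mvk (0.35 ± 0.17) and Pmvk (-0.02 ± 0.22), and Tm7sf2, Ebp, Sc5d and Dhcr7, enzymes that act after lanosterol, between 0.06 and 0.30.

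The SREBP regulators moved in both directions. Srebf2 rose from 150 and 152 to 186 and 178 CPM (0.27 ± 0.07, adjusted p = 0.01), and Insig1 from 33.4 and 35.1 to 53.4 and 55.8 CPM (0.67 ± 0.09). Scap, the escort of the SREBP precursors, fell from 93.6 and 93.9 to 74.3 and 70.8 CPM (-0.37 ± 0.06). Insig2, the other INSIG gene, fell by 0.40 on the log2 scale (SE 0.08), from 37.7 and 40.9 to 29.0 and 30.6 CPM. Srebf1 was not called (-0.17 ± 0.07, adjusted p = 0.0817). In each of these pairs of groups the treated libraries lay on 1 side of the untreated ones. The share of all genes tested whose groups separate in this way was not counted, here or below.

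Abca1 changed most of the 32 genes in this comparison. It was at 28.1 and 33.7 CPM with control siRNA and at 2.45 and 2.84 CPM with TGF-beta, a mean of 8.55% of the untreated level (-3.54 ± 0.33, adjusted p = 5.51e-06). Stard4, a carrier of cholesterol between membranes, stood at 51.8 and 55 CPM without and 49 and 51.3 CPM with TGF-beta and was not called (-0.09 ± 0.16). Among the fatty acid enzymes 4 rose and 2 fell. Fasn, the fatty acid synthase, rose from 251 and 281 to 520 and 462 CPM (0.88 ± 0.14), Elovl6, an elongase, by 0.70 ± 0.16, Scd2 from 1018 and 1078 to 1575 and 1598 CPM (0.60 ± 0.11) and Acly by 0.52 ± 0.11. Lpin1 fell from 5.40 and 5.56 to 1.80 and 2.41 CPM (-1.36 ± 0.19) and Acss2 from 4.91 and 4.69 to 2.51 and 2.80 CPM (-0.85 ± 0.18). Scd1 was at 186 and 204 CPM without and 167 and 182 CPM with TGF-beta and was not called (-0.16 ± 0.11). Of the 23 calls, 21 held without any 1 of the 4 libraries; Mvd and Srebf2 lost theirs, with adjusted p up to 0.319 for Mvd and 0.0778 for Srebf2.

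**Figure D2:**
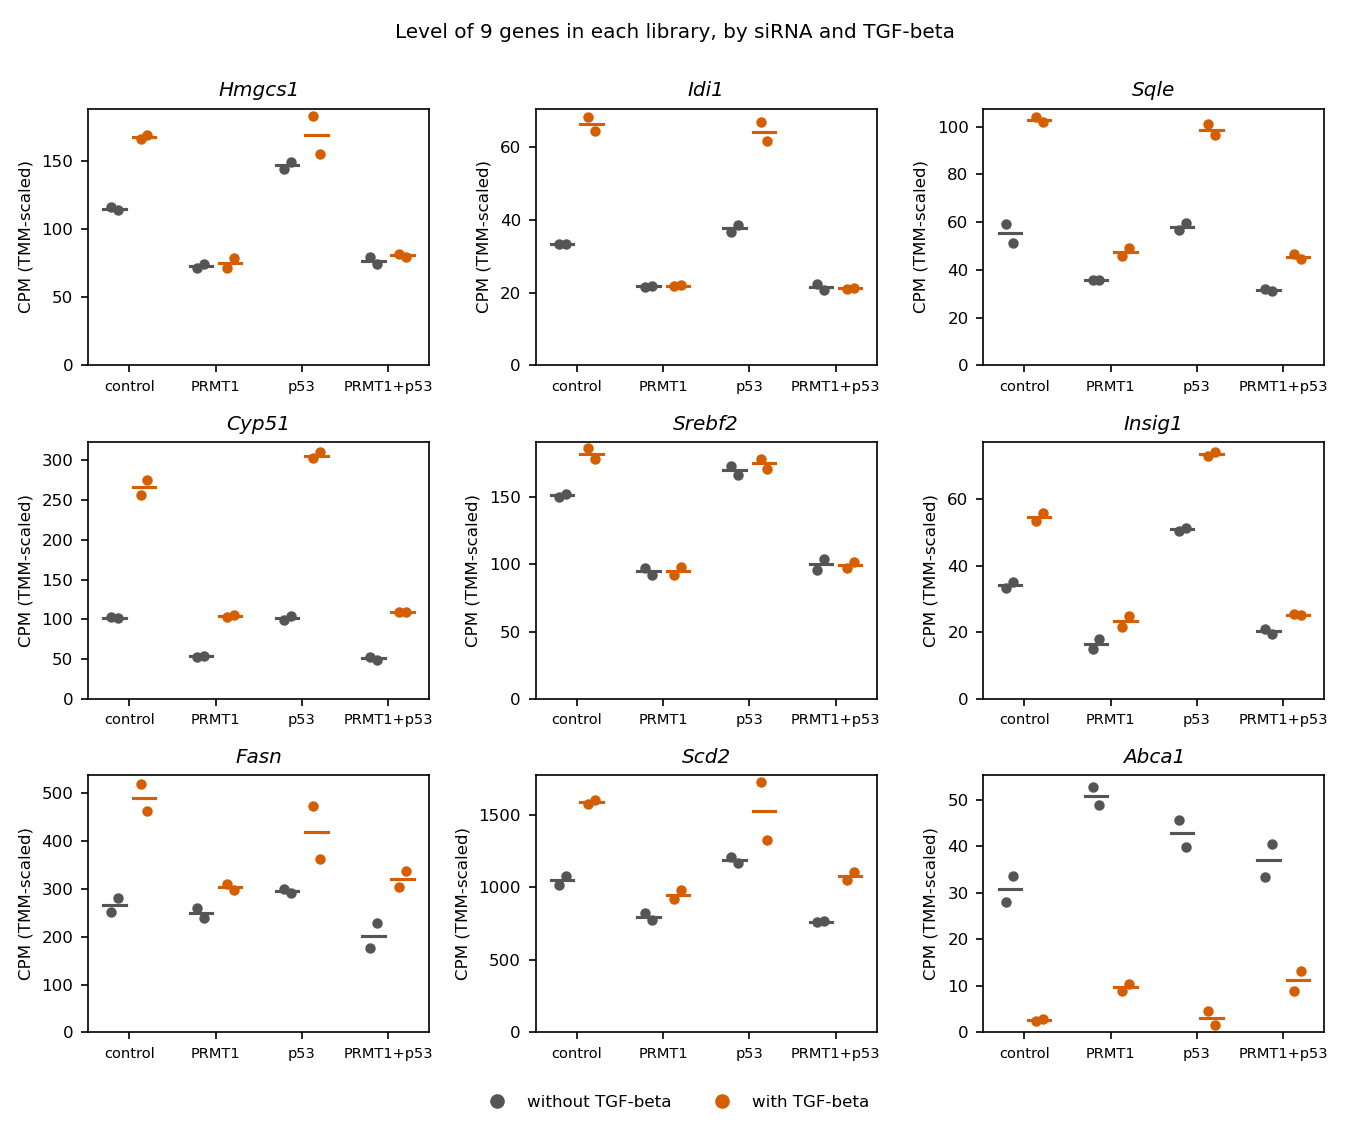
CPM of 9 genes in each of the 16 libraries (points; bars are the mean of the 2 libraries of a group), by siRNA on the x axis and without (grey) or with (orange) TGF-beta. Sterol genes rise with TGF-beta in control cells and are lower wherever PRMT1 siRNA is present, and Idi1 stays between 20.6 and 22.5 CPM in all 8 libraries with PRMT1 siRNA.

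PRMT1 siRNA lowered sterol and SREBP genes without TGF-beta. Of the 32 genes 12 fell and none rose, where 10.3% of all genes tested were called (4.48% higher and 5.85% lower). The 12 were 8 sterol enzymes, 3 SREBP regulators and Scd2. All 18 sterol enzymes had a log2 change below 0, with a median of -0.42 beside 0.01 over all genes tested. Their summed level was 486 and 492 CPM, 69.7% of the control mean.

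Insig1 had the largest fall of that comparison, from 33.4 and 35.1 to 14.9 and 18 CPM (-1.06 ± 0.10, adjusted p = 0.000103). Cyp51 fell from 103 and 102 to 53 and 54.0 CPM (-0.94 ± 0.07), a mean of 52.2% of the control level. Srebf2 fell from 150 and 152 to 97.1 and 92.3 CPM (-0.67 ± 0.07), and Srebf1 from 78.6 and 73.6 to 54.4 and 52.2 CPM (-0.51 ± 0.07). Hmgcs1 fell by 0.66, Sqle by 0.63, Idi1 by 0.62 and Msmo1 by 0.59 on the log2 scale. In none of these 8 genes did the groups overlap. They are the larger falls among those called, so this is not read as a further result. The smaller falls of Lss, Sc5d, Dhcr7 and Scd2 were called too, but each lost the call when single libraries were left out. Among the genes not called, Abca1 was at 52.7 and 48.9 CPM, above both control libraries (0.72 ± 0.26, adjusted p = 0.114), and Insig2 gave 0.13 ± 0.07. Fasn (-0.09 ± 0.14), Elovl6 (-0.11 ± 0.16) and Acss2 (0.11 ± 0.16) were not called either. The count was 8, 8, 9 and 8 without replicates 1 and 2 of control and of PRMT1 siRNA in turn, and 25 in the fit without the library that stood apart (24 lower, and Abca1 higher), where 26.4% of all genes were called.

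With TGF-beta present, PRMT1 siRNA lowered 22 of the 32 genes and raised Abca1, where 15.7% of all genes tested were called (9.13% higher and 6.53% lower). The 22 were 13 sterol enzymes, Srebf1, Srebf2, Insig1, Stard4 and 5 fatty acid enzymes. The summed sterol enzyme level was 611 and 626 CPM, against 1215 and 1241 CPM with control siRNA and TGF-beta, and the median log2 change of the 18 was -0.70 beside 0.02 over all genes.

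Idi1 fell most, from 68.2 and 64.3 to 21.8 and 22 CPM (-1.60 ± 0.07, adjusted p = 1.77e-06). Cyp51 fell from 256 and 275 to 103 and 105 CPM (-1.36 ± 0.07), Hmgcs1 from 166 and 169 to 71.4 and 79.1 CPM (-1.15 ± 0.09) and Msmo1 from 94.0 and 93.7 to 41.0 and 43.6 CPM (-1.15 ± 0.09). Sqle, Fdps and Lss fell by 1.12, 1.11 and 1.03 on the log2 scale. These groups lay well apart, with no treated library near a control one. Of the regulators, Insig1 fell from 53.4 and 55.8 to 21.7 and 24.9 CPM (-1.23 ± 0.10) and Srebf2 from 186 and 178 to 91.9 and 97.8 CPM (-0.94 ± 0.07), while Srebf1 changed less (-0.35 ± 0.07). Scap (-0.18 ± 0.06) and Insig2 (0.14 ± 0.08) were not called. Abca1 was at 8.84 and 10.5 CPM, above 2.45 and 2.84 CPM (1.86 ± 0.34, adjusted p = 0.00529), a call that was lost in 1 of the 4 fits without a library (adjusted p up to 0.0543). Stard4 fell from 49 and 51.3 to 26.5 and 27.1 CPM (-0.90 ± 0.16). Among the fatty acid enzymes, Elovl6 (-0.86 ± 0.16), Scd1 (-0.85 ± 0.11), Scd2 (-0.74 ± 0.11), Fasn (-0.69 ± 0.14) and Acly (-0.62 ± 0.11) fell, and Acss2 (0.43 ± 0.18) and Lpin1 (-0.13 ± 0.21) were not called. Of the 23 calls 16 held without any 1 of the 4 libraries.

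**Figure D3:**
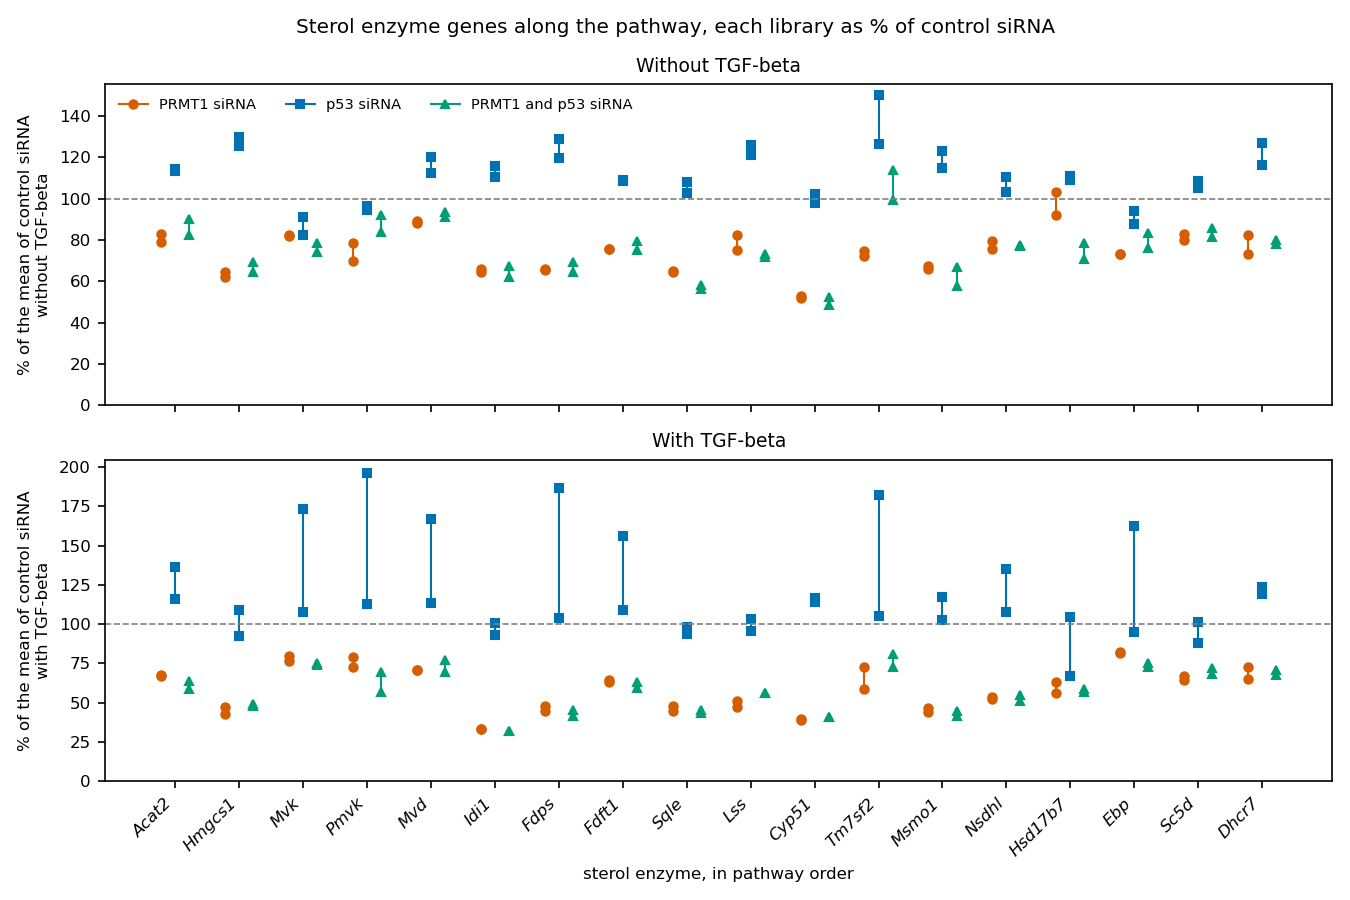
Level of each sterol enzyme gene under PRMT1 siRNA (circles), p53 siRNA (squares) and both (triangles), in pathway order on the x axis, as a percentage of the control siRNA mean without (top) and with (bottom) TGF-beta on a linear axis from 0; each pair of joined points is the 2 libraries of a group. With TGF-beta every library with PRMT1 siRNA is below 100% for all 18 genes. The joined squares of p53 siRNA with TGF-beta, a pair of unlike libraries, spread widely for several genes.

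TGF-beta under PRMT1 siRNA raised fewer of the genes: 7 rose and 8 fell, where 32.5% of all genes tested were called (16.3% higher and 16.2% lower). Among the sterol enzymes 6 rose (Cyp51, Fdps, Msmo1, Fdft1, Sqle and Nsdhl) and Sc5d fell, with a median of 0.25. Cyp51 went from 53 and 54.0 to 103 and 105 CPM (0.96 ± 0.07), beside 103 and 102 CPM in control cells without TGF-beta. Idi1 was at 21.5 and 21.9 CPM without and 21.8 and 22 CPM with TGF-beta (0.01 ± 0.07), and Hmgcs1 gave 0.05 ± 0.09. Srebf2 stood at 97.1 and 92.3 CPM without and 91.9 and 97.8 CPM with TGF-beta (0.00 ± 0.07). Insig1 rose (0.50 ± 0.10), and Scap (-0.34 ± 0.06) and Insig2 (-0.39 ± 0.07) fell. Abca1 fell from 52.7 and 48.9 to 8.84 and 10.5 CPM (-2.39 ± 0.28). No fatty acid enzyme was called higher, and Lpin1 (-1.05 ± 0.19), Scd1 (-0.69 ± 0.11) and Acss2 (-0.54 ± 0.16) fell. Without replicate 1 or 2 of either group the count of 15 was 9 each time, so 6 calls, Fdps, Fdft1, Nsdhl, Sc5d, Stard4 and Acss2, depended on having both libraries. In the fit without the library that stood apart 14 rose and 8 fell, where 50.6% of all genes were called (25.7% higher and 25% lower). Among the 14 were 10 sterol enzymes and 3 fatty acid enzymes.

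The difference between the TGF-beta responses under PRMT1 and control siRNA was itself tested as an interaction. It was called for 5 of the 32 genes, where 2.08% of all genes tested were called (1.3% higher and 0.781% lower); all 5 were sterol enzymes with a smaller response under PRMT1 siRNA. Idi1 differed by -0.98 ± 0.10 (95% interval -1.20 to -0.75, adjusted p = 0.000684), Lss by -0.68 ± 0.10 (adjusted p = 0.00792), Msmo1 by -0.56 ± 0.13 (adjusted p = 0.0487), Sqle by -0.49 ± 0.11 (adjusted p = 0.0469) and Cyp51 by -0.42 ± 0.09 (adjusted p = 0.047). The same number is the difference between the PRMT1 siRNA effects with and without TGF-beta. Over all 18 sterol enzymes the interaction was below 0 for 16, with a median of -0.37 beside 0.03 over all genes. Of the 7 fatty acid enzymes it was below 0 for 5, with a median of -0.35. Hmgcs1 (-0.50 ± 0.12, adjusted p = 0.0613), Elovl6 (-0.75 ± 0.22, adjusted p = 0.109) and Abca1 (1.15 ± 0.44, adjusted p = 0.176) were not called. Leaving out 1 of the 8 libraries gave 1 or 2 calls, and Idi1 was called each time; without replicate 1 of PRMT1 siRNA, or replicate 1 of PRMT1 siRNA with TGF-beta, 1 was called. The fit without the library that stood apart called 19 of the 32, where 30.7% of all genes were called.

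**Figure D4:**
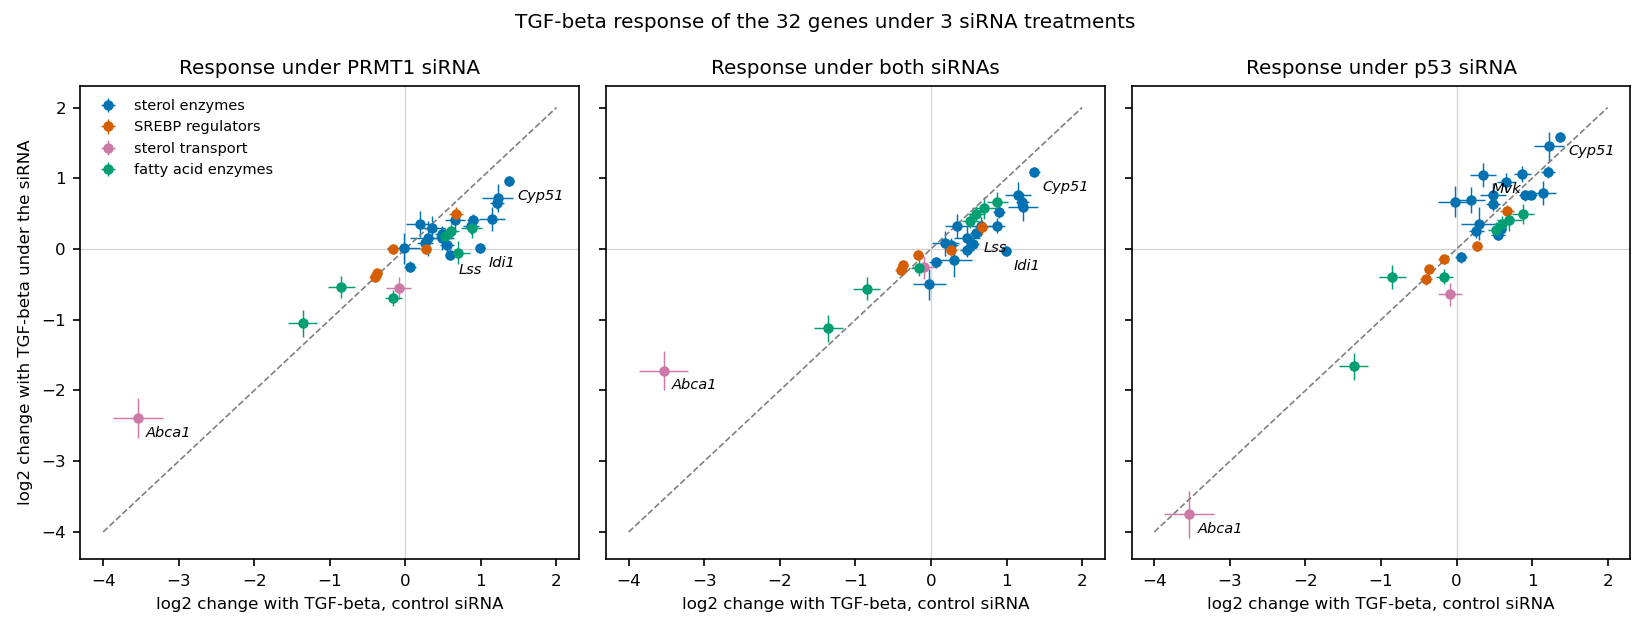
log2 change with TGF-beta of each of the 32 genes under PRMT1 siRNA, both siRNAs and p53 siRNA (y axes) against that under control siRNA (x axis), with bars of 1 standard error and a dashed line of equal response. With PRMT1 siRNA alone or with p53 siRNA most sterol enzymes (blue) lie below the line and Abca1 lies above it, while under p53 siRNA the genes lie on both sides.

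Few genes of any kind were called with p53 siRNA alone, and the share of the 32 called, 3.12% in each state, was near that of all genes. Insig1 was the only 1 of the 32 called without TGF-beta, where 2.47% of all genes tested were called (1.17% higher and 1.29% lower), and the only 1 called with it, where 5.21% were called (2.82% higher and 2.39% lower). Insig1 rose from 33.4 and 35.1 to 50.5 and 51.3 CPM without TGF-beta (0.57 ± 0.09, adjusted p = 0.00999) and from 53.4 and 55.8 to 73.1 and 74.2 CPM with it (0.43 ± 0.09, adjusted p = 0.0242). The groups did not overlap in either case, but without any 1 of the 4 libraries the first call was lost (adjusted p 0.0685 to 0.147). The second was lost without either library of control siRNA with TGF-beta, with adjusted p up to 0.181. At an unadjusted p under 0.05, 8 and 11 of the 32 genes passed, beside 2171 and 4445 of the 15494 genes tested. DESeq2 called 3 and 4 of the 32, beside 655 and 1526 of all. Without TGF-beta, Hmgcs1 stood at 144 and 149 CPM against 116 and 114 CPM (0.35 ± 0.09, adjusted p = 0.0536), Lss at 41.4 and 43.0 against 34.2 and 34.1 CPM (0.31 ± 0.07, adjusted p = 0.0531) and Stard4 at 77.8 and 72.8 against 51.8 and 55 CPM (0.50 ± 0.16, adjusted p = 0.163). In the fit without the library that stood apart these 3 and Fdps were called higher beside Insig1, 5 of the 32, where 11.7% of all genes were called. Srebf1 (-0.02 ± 0.07) and Srebf2 (0.17 ± 0.07) were not called. With TGF-beta, that fit gave Insig1 0.42 ± 0.09 and again called it alone of the 32, where 4.1% of all genes were called.

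The comparisons that hold p53 siRNA with TGF-beta rest on a pair of unlike libraries. Fdps was at 93.0 and 167 CPM in replicates 1 and 2, Fdft1 at 82.6 and 118 CPM, Scd2 at 1721 and 1327 CPM and Stard4 at 59.9 and 36.7 CPM. TGF-beta under p53 siRNA raised 17 of the 32 genes and lowered 6, where 45.3% of all genes tested were called (23.3% higher and 22% lower). Among the sterol enzymes 14 rose, with a median of 0.76, among them Cyp51 from 99.6 and 104 to 303 and 310 CPM (1.59 ± 0.07). Without replicate 2 the median of the sterol enzymes was 0.58. Cyp51 then gave 1.57 ± 0.07, but Fdps went from 1.45 ± 0.20 to 0.96 ± 0.08 and Pmvk from 0.67 ± 0.22 to 0.22 ± 0.16. Abca1 fell from 45.6 and 39.9 to 4.64 and 1.60 CPM (-3.75 ± 0.33, and -3.20 ± 0.24 without replicate 2). The p53 by TGF-beta interaction passed an unadjusted p under 0.05 for 7 of the 32, beside 2911 of the 15494 genes tested. DESeq2 called it for none of the 32, beside 501 of all. edgeR also called it for none of the 32, where 1.02% of all genes were called. Without replicate 2 it was again called for 0 of the 32, where 2.24% of all genes were called. With replicate 1 left out in place of replicate 2, replicate 2 stood alone for its group. More of the 32 were then called in the interaction and in the p53 siRNA effect with TGF-beta. The share of all genes called in that fit was not counted, so these calls are not read as a result about the lipid genes.

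Cells with both siRNAs had lower sterol and SREBP genes than control cells. Against control siRNA without TGF-beta, 11 of the 32 genes fell and none rose, where 4.45% of all genes tested were called (2.31% higher and 2.14% lower). With TGF-beta 22 fell and Abca1 rose, where 13.1% were called (7.71% higher and 5.35% lower). The summed sterol enzyme level was 505 and 472 CPM without and 627 and 604 CPM with TGF-beta, beside 486 and 492 and 611 and 626 CPM with PRMT1 siRNA alone. Both contrasts share their control libraries with those of PRMT1 siRNA, so the values are given side by side and not as a test of likeness. Without TGF-beta, Cyp51 fell from 103 and 102 to 53.3 and 49.4 CPM, a mean of 50.1% of the control level. In the same comparison Sqle gave -0.80 ± 0.08, Insig1 -0.75 ± 0.10, Msmo1 -0.68 ± 0.09, Idi1 -0.63 ± 0.07 and Srebf2 -0.60 ± 0.07. With TGF-beta, Idi1 fell from 68.2 and 64.3 to 21.1 and 21.3 CPM (-1.64 ± 0.07), Cyp51 to 109 and 109 CPM (-1.28 ± 0.07), Insig1 to 25.5 and 25.1 CPM (-1.11 ± 0.09) and Srebf2 to 97.0 and 102 CPM (-0.87 ± 0.07). Abca1 stood at 8.97 and 13.3 CPM, against 2.45 and 2.84 CPM (2.07 ± 0.34). Without TGF-beta the count was 7 without replicate 1 or 2 of control siRNA or replicate 1 of both siRNAs, and 6 without replicate 2 of both siRNAs; it was 25 in the fit without the library that stood apart, where 18.7% of all genes were called. With TGF-beta it was 18 without either control library, and 14 and 16 without replicates 1 and 2 of both siRNAs.

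Adding p53 siRNA to PRMT1 siRNA was tested directly. edgeR called none of the 32 genes without TGF-beta, where 0.865% of all genes tested were called, and none with it, where 0.452% were. At an unadjusted p under 0.05, 5 and 2 of the 32 passed, beside 2382 and 1621 of the 15494 genes tested. DESeq2 called none of the 32, beside 554 and 225 of all. The 95% interval of the difference for Idi1 was -0.17 to 0.15 without and -0.21 to 0.12 with TGF-beta, for Cyp51 -0.21 to 0.09 and -0.07 to 0.22, and for Srebf2 -0.08 to 0.23 and -0.09 to 0.22. Insig1 gave 0.31 ± 0.10 without TGF-beta (95% interval 0.09 to 0.52, adjusted p = 0.177) and Elovl6 -0.48 ± 0.16 (adjusted p = 0.195), and both were called in the fit without the library that stood apart, which called 6 of the 32 without TGF-beta, where it called 21.6% of all genes, and 2 with it, where it called 12.2%. Trp53 was less reduced in the cells with both siRNAs than with p53 siRNA alone, as given above; the part of this in the result was not tested.

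TGF-beta with both siRNAs raised 12 of the 32 genes and lowered 5, where 31.3% of all genes tested were called (15% higher and 16.3% lower). Of the sterol enzymes 7 were called higher and none lower, with a median of 0.19. Cyp51 rose from 53.3 and 49.4 to 109 and 109 CPM (1.09 ± 0.07), Hsd17b7 by 0.77 ± 0.17 and Msmo1 by 0.67 ± 0.09, and Idi1 was at 22.5 and 20.6 CPM without and 21.1 and 21.3 CPM with TGF-beta. The fatty acid enzymes Fasn (0.66 ± 0.14), Elovl6 (0.58 ± 0.16), Scd2 (0.50 ± 0.11) and Acly (0.40 ± 0.11) rose. Abca1 fell from 33.5 and 40.5 to 8.97 and 13.3 CPM (-1.72 ± 0.28), and Lpin1 by 1.12 on the log2 scale. The count of 17 was 8 and 10 without replicates 1 and 2 of both siRNAs, and 10 and 9 without replicates 1 and 2 of both siRNAs with TGF-beta. In the fit without the library that stood apart 14 rose and 9 fell, where 47.4% of all genes were called (23.5% higher and 23.9% lower). Of the sterol enzymes 9 were higher and 2, Pmvk and Sc5d, lower. As an interaction against control siRNA, Idi1 was the 1 gene called (-1.02 ± 0.10, adjusted p = 0.000741), where 1.26% of all genes were called and 0.394% called lower, and it was called without any 1 of the 8 libraries. The fit without the library that stood apart called 10 of the 32, where 4.81% of all genes were called. With all 16 libraries, the 18 sterol enzymes were all below 0 in this interaction, with a median of -0.37 beside 0.01 over all genes. Abca1 gave 1.81 ± 0.43 (adjusted p = 0.084) with all 16 libraries, and 1.83 without the library that stood apart. The PRMT1 by p53 interaction was called by edgeR for none of the 32 genes, without TGF-beta (0% of all genes) or with it (0.762%). In each, 7 passed an unadjusted p under 0.05, beside 1192 and 4264 of the 15494 genes tested. DESeq2 called 0 and 1 of the 32, beside 52 and 995 of all. The fit without the library that stood apart called 5 and 0 of the 32, where 9.23% and 2.31% of all genes were called.

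**Figure D5:**
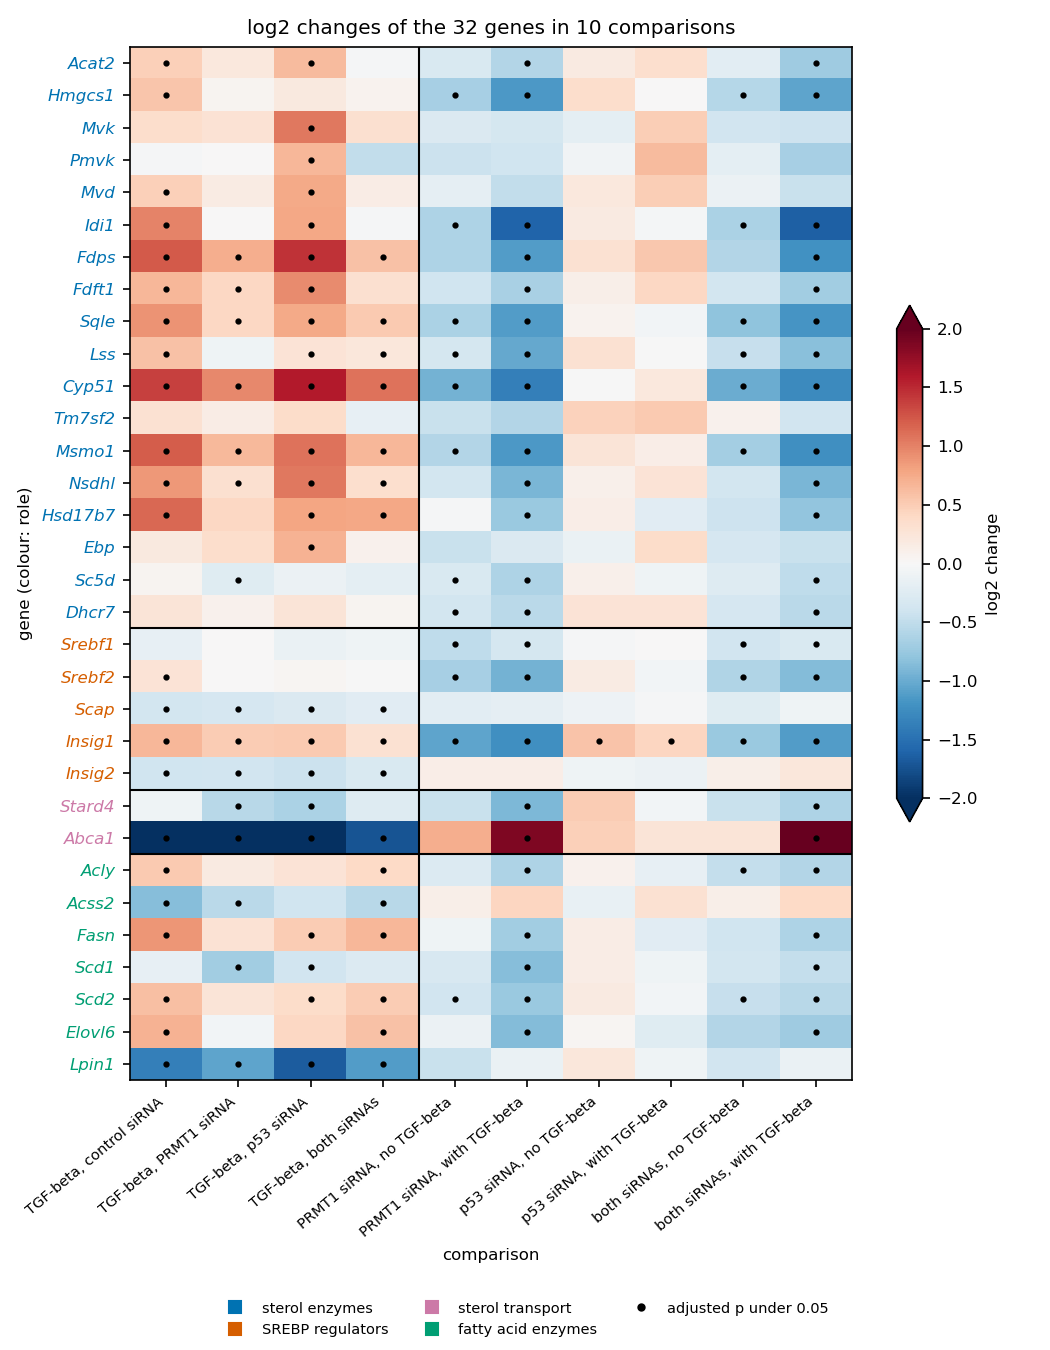
log2 changes of the 32 genes (rows, coloured by role) in 10 comparisons (columns: TGF-beta under each siRNA treatment, then each siRNA treatment against control), with dots where the adjusted p was under 0.05. The colour scale ends at 2 in either direction, so Abca1 is off the scale in 3 of the 4 TGF-beta columns and in that of both siRNAs with TGF-beta, and the columns of PRMT1 siRNA and of both siRNAs with TGF-beta each show 22 genes called lower.

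By role, PRMT1 siRNA without TGF-beta lowered 8 of 18 sterol enzymes and 1 of 7 fatty acid enzymes, with medians of -0.42 and -0.28, where 5.85% of all genes tested were called lower; a difference between the roles was not tested. In the fit without the library that stood apart these counts were 15 of 18 and 4 of 7, where 15.4% of all genes were called lower. With TGF-beta they were 13 of 18 and 5 of 7, with medians of -0.70 and -0.69, where 6.53% were called lower, and 18 of 18 and 5 of 7 in the fit without that library, where 20.1% were. Among the SREBP regulators, Srebf1, Srebf2 and Insig1 were lower under PRMT1 siRNA both without and with TGF-beta. Scap was not called in either (-0.21 ± 0.06 and -0.18 ± 0.06), but was called lower in both in the fit without the library that stood apart, and Insig2 was called in neither fit. Scap and Insig2 were called lower with TGF-beta under all 4 siRNA treatments, although with both siRNAs the calls of Scap, Insig2 and Insig1 each failed in at least 1 fit that left out a library. Abca1 fell with TGF-beta under all 4 siRNA treatments too, with log2 changes from -3.75 to -1.72.

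Neighbouring lipid genes outside the 32 were counted from 7 lists. Fatty acid oxidation genes, whose products break down fatty acids, fell in control cells with TGF-beta: 15 of 17 fell and none rose, with a median of -0.42, where 20.6% of all genes tested were called lower. Cpt1a, the carnitine palmitoyltransferase gate to mitochondria, went from 121 and 126 to 94.8 and 96.5 CPM (-0.37 ± 0.10) and Hadha, a subunit of the trifunctional protein, from 116 and 111 to 88.6 and 91.6 CPM (-0.33 ± 0.08). With TGF-beta 3 of the 17 fell under PRMT1 siRNA (median -0.17, 16.2% of all genes lower), 7 under p53 siRNA (median -0.31, 22% lower) and 8 under both (median -0.32, 16.3% lower). edgeR called none of the 17 in the interaction of TGF-beta with PRMT1, p53 or both siRNAs. Of all genes tested 2.08%, 1.02% and 1.26% were called, in that order. These interactions, which share the control libraries, were above 0 for 16, 15 and 13 of the 17. Their medians were 0.32, 0.28 and 0.19, beside 0.03, 0.03 and 0.01 over all genes. Of 16 other genes of fatty acid synthesis, desaturation and elongation, 4 rose and 4 fell with TGF-beta in control cells, where 17.8% of all genes were called higher and 20.6% lower, and 6 fell and none rose with PRMT1 siRNA in its presence, where 6.53% of all genes were called lower. Fads1, a desaturase of polyunsaturated fatty acids, fell with PRMT1 siRNA from 259 and 263 to 176 and 178 CPM (-0.56 ± 0.06), and Acaca, the acetyl-CoA carboxylase that feeds Fasn, was lower by 0.78 ± 0.19 with TGF-beta present. Of the 12 genes that branch from mevalonate to isoprenoids and ubiquinone, none was called with PRMT1 siRNA without TGF-beta and 1 rose with it, where 10.3% and 15.7% of all genes were called. Sterol uptake, trafficking and storage genes moved both ways with TGF-beta in control cells (5 of 14 rose and 5 fell), as did LXR-responsive genes (3 of 7 tested rose and 3 fell), a list that includes Abca1. Among the latter, Lpcat3 fell (-0.78 ± 0.07) and Plin2 rose (0.56 ± 0.10) with TGF-beta in control cells. SREBP processing genes gave 1 of 11 tested higher and 4 lower, and glycerolipid synthesis genes 2 of 13 higher and none lower. Beside these last 4 lists stands the 38.4% of all genes called in that comparison, 17.8% higher and 20.6% lower.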

How the data were processed

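RNA sequencing libraries of 16 samples were analysed (1 per sample), grouped by the sample titles. The authors deposited 1 table of expected counts per gene. TopHat2, Partek and the build mm10 are named, per the submitters' processing notes, with no versions, annotation or strand setting given in the sources used here. The totals of the deposited expected counts differ between libraries, so they were not scaled to a common total. Whether another library scaling was applied cannot be told from the totals. Of the values above 0, 55.1% lay within 0.001 of a whole number, and all were rounded to whole counts before testing. Every row named a gene.

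The test was edgeR's quasi-likelihood test (edgeR 4.0.16, R 4.3.3), with TMM factors, filterByExpr and a separate mean for each of the 8 groups over 16 libraries, with 17 contrasts and Benjamini-Hochberg adjustment over the 15494 genes tested. Adjusted p-values are from edgeR unless DESeq2 (1.42.0) is named. The common biological coefficient of variation was 0.114, and 0.0604 in 15 libraries, those other than replicate 2 of the p53 siRNA group treated with TGF-beta. With 2 libraries per group, called biological replicates in the series' design without saying how they were grown, p-values measure the spread between these libraries.

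Other settings were RLE factors, no filter, a replicate block, only the groups of a contrast, DESeq2, 15 libraries, offsets for each library's trend with exon length (GENCODE vM21) with 16 and 15 libraries, and fits that each omitted 1 of a contrast's libraries, which leaves its group with 1 library assumed to vary like the other groups. The steps of the fit were also run on simulated counts with the same spread for every gene and no unlike library, an easier setting than these data.

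The 32 genes, the 7 neighbouring lists, the tests and the settings were chosen with earlier results of these data known. The text names the 32 genes, Prmt1, Trp53 and, among the 3 most abundant genes of each neighbouring list, those given. Promoters came from RefSeq (GRCm38.p6). Some further genes of these pathways are not reported here.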

Additional observations from a re-analysis of the deposited data

Results flagged for a closer look

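In 6 cases a pair of TGF-beta responses differed by a direct test of the difference. All were sterol enzymes with a smaller response where PRMT1 was reduced. Over all genes tested, 2.08% were called in the interaction of PRMT1 siRNA and 1.26% in that of both siRNAs. These interactions share the control libraries, and Idi1 is counted in both. The median interaction with PRMT1 siRNA was -0.37 for sterol enzymes and -0.35 for fatty acid enzymes. With both siRNAs it was -0.37 and -0.11. A difference between the roles was not tested. Between PRMT1 and control siRNA the difference in log2 change was -0.98 for Idi1, -0.68 for Lss, -0.56 for Msmo1, -0.49 for Sqle and -0.42 for Cyp51. Between both siRNAs and control siRNA it was -1.02 for Idi1. Idi1 was called without any 1 of the 8 libraries in each case, while Msmo1, Sqle and Cyp51 were called in none of the fits that left out 1 library, where their adjusted p ran from 0.138 to 0.197, from 0.0527 to 0.195 and from 0.106 to 0.196. Lss was called in 6 of those 8 fits.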

How the results depend on the processing

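Of 155 values of the 32 genes called over the 17 contrasts, 116 were called the same way in all 8 other settings and 100 without any 1 library of their comparison; of 389 not called, 140 were called in at least 1 other setting. Counts below are of the 32 genes called. Except with 15 libraries and with DESeq2, the share of all genes called in the other fits, here and above, was not counted. A count that differs in those fits is therefore not read as a change particular to the lipid genes. Leaving out 1 library gave 21 to 22 for TGF-beta in control siRNA, 9 to 9 under PRMT1 siRNA, 18 to 27 under p53 siRNA and 8 to 10 under both. It gave 8 to 9 and 18 to 20 for PRMT1 siRNA without and with TGF-beta, 0 to 0 and 0 to 20 for p53 siRNA, 6 to 7 and 14 to 18 for both siRNAs, and 0 to 0 in each state for p53 siRNA added to PRMT1 siRNA. The interactions with TGF-beta gave 1 to 2 for PRMT1 siRNA, 0 to 22 for p53 siRNA and 1 to 1 for both, and the PRMT1 by p53 interaction 0 to 0 without and 0 to 20 with TGF-beta. The highest value for p53 siRNA with TGF-beta came when replicate 1 of the p53 siRNA group treated with TGF-beta was left out. The same holds for the p53 by TGF-beta interaction and for PRMT1 by p53 with TGF-beta. The share of all genes called in that fit was not counted.

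With only the groups of a contrast fitted, the count was 8 for TGF-beta under p53 siRNA, 20 for PRMT1 siRNA without TGF-beta, 4 and 0 for p53 siRNA without and with TGF-beta, 3 and 2 for p53 siRNA added to PRMT1 siRNA, 18 and 5 for the interactions of PRMT1 siRNA and of both siRNAs with TGF-beta, and 1 for PRMT1 by p53 without TGF-beta. With 15 libraries it was 25 for PRMT1 siRNA and 25 for both siRNAs without TGF-beta, 5 for p53 siRNA without TGF-beta, 6 and 2 for p53 siRNA added, 19 and 10 for the interactions of PRMT1 siRNA and of both with TGF-beta, and 5 for PRMT1 by p53 without TGF-beta. Length offsets with 16 and with 15 libraries gave 23 and 27 for PRMT1 siRNA without TGF-beta, 22 and 26 for both siRNAs, 5 and 9 for p53 siRNA without and 3 and 2 with TGF-beta, 1 and 7 for p53 siRNA added without and 1 and 2 with TGF-beta, and 13 and 17, and 8 and 13, for the interactions of PRMT1 siRNA and of both with TGF-beta. With 15 libraries they also gave 1 for p53 by TGF-beta and 7 for PRMT1 by p53 without TGF-beta. Without a filter the count was 3 and 6 for p53 siRNA without and with TGF-beta, 2 for p53 siRNA added without TGF-beta, 8, 3 and 3 for the interactions of PRMT1, p53 and both siRNAs with TGF-beta, and 1 and 3 for PRMT1 by p53. DESeq2 gave 3 and 4 for p53 siRNA, 8 and 6 for the interactions of PRMT1 siRNA and of both with TGF-beta, and 1 for PRMT1 by p53 with TGF-beta. Except where the setting itself removes libraries or groups, the cause was not tested.

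Same-numbered libraries showed no strong common deviation. Over 28 pairs of groups their deviations correlated at -0.40 to 0.25, with a median of -0.00 and 6 pairs over 0.1. This cannot show that the samples were unpaired, since how they were grown is not given. A replicate block gave 2 for the PRMT1 siRNA by TGF-beta interaction, against 5 without it, and moved no other count by over 1.5 times. With length offsets and 15 libraries, Stard4 under p53 siRNA with TGF-beta changed sign to 0.25, and Fdps in the p53 by TGF-beta interaction to -0.31. Of 7168 single-gene values under another setting, 233 changed sign while called in neither fit; they were counted as unchanged. Precision is limited by 2 libraries per group and by the unlike pair of p53 siRNA with TGF-beta, which raises the shared spread.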
